A study of Homo sapiens with 12 samples.

Results

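The 9 genes described here are epithelial genes measured in EA.hy926, a human hybrid line with 2 parents, umbilical vein endothelium and the lung carcinoma line A549. The labels call it an endothelial cell line. They were chosen by symbol from the 51141 gene rows of the count table: the keratins KRT7, KRT8, KRT15, KRT18, KRT19, KRT80 and KRT81, the epithelial cell adhesion molecule EPCAM and E-cadherin, CDH1. Messenger RNA was sequenced in 12 libraries in 4 groups of 3. All groups are cultures of this 1 cloned line. The labels tell the groups apart by treatment and name no batch. In the TEPA+hypoxia group, cells received 50 µM TEPA, a copper chelator, for 16 h and were then kept for a further 8 h in 1% oxygen. The TEPA group had the same chelator treatment and spent the last 8 h at normal oxygen. The hypoxia group spent 8 h in 1% oxygen with no chelator, and the control group had neither. The design asks how copper chelation alters transcription in low oxygen. The labels do not say whether the replicates were separate cultures, so p-values here measure only the spread between these libraries, which may be technical.

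Keratins are the intermediate filament proteins of epithelial cells, and each filament is built from pairs of 1 acidic (type I) and 1 basic or neutral (type II) keratin. KRT8 (type II) and KRT18 (type I) are the standard pair of simple epithelia, and KRT7 and KRT19 join them in ductal and lung epithelium. Endothelial cells of large vessels are known above all for vimentin filaments and for VE-cadherin (CDH5) in their junctions, where epithelial cells use CDH1. A fused line holds genes of both parents, and counts per gene do not show which parental copy a transcript came from.

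The type II genes KRT7 (chr12:52232520-52252186, plus strand), KRT8 (chr12:52897187-52949954, minus strand), KRT80 (chr12:52168996-52192000, minus strand) and KRT81 (chr12:52285913-52291534, minus strand) lie in the keratin cluster of chromosome 12, on GRCh38 by GENCODE 29. KRT18 (chr12:52948871-52952901, plus strand) is the type I gene at the end of that cluster. KRT15 (chr17:41513743-41522529, minus strand) and KRT19 (chr17:41523617-41528308, minus strand) are neighbours in the type I cluster of chromosome 17. EPCAM (chr2:47345158-47387601, plus strand) and CDH1 (chr16:68737225-68835548, plus strand) stand on their own.

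The members resemble one another in sequence, which bears on how reads can be told apart. Over their aligned coding sequences the 4 type II members ranged from 55.7% identity between KRT80 and KRT81 to 70.1% between KRT7 and KRT8. The 3 type I members are shown over 60 coding bases at the start of the rod domain. This is the stretch of that length, without gaps, in which the most bases are identical in all 3. There 48 of 60 bases are identical in all 3 (capitals mark those bases, and numbers count from the A of the start codon).
KRT15, coding bases 322 to 381: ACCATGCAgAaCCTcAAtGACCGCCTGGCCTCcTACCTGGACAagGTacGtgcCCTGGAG
KRT18, coding bases 247 to 306: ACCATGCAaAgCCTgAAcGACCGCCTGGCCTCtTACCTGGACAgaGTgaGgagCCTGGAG
KRT19, coding bases 247 to 306: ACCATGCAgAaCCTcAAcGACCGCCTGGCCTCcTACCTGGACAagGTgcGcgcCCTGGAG
KRT15 and KRT19 were 70.5% identical over their coding sequences, and KRT18 was 58.0% identical to KRT15 and 59.4% to KRT19. KRT8 and KRT18, which pair in the filament, were 49.5% identical.

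KRT8 also has many processed pseudogenes, copies made from its messenger RNA. The count table held 48 rows named as KRT8 pseudogenes, of which 18 had counts. The copy with the most counts was KRT8P12 on chromosome 3, which was 90.5% identical to KRT8 over 1385 aligned bases. KRT8P3 was 97.1% identical to KRT8, which leaves fewer bases to separate them. Counts in the KRT8 pseudogene rows summed to 1.38 to 2.28% of the KRT8 count in a library, and those in KRT18 pseudogene rows to 0.0622 to 0.143% of the KRT18 count. KRT81 was 92.9% identical to KRT86 and 92.8% to KRT83, and those rows held at most 10 counts and 1 count in a library. Exons of KRT8 and KRT18 overlap by 525 bp on opposite strands, and exons of KRT7 overlap its antisense gene KRT7-AS by 282 bp. The libraries were made with a directional kit, but whether counting used strand is not given in the sources used here, so reads in these stretches may have been counted for either gene.

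Total counts per library ran from 13406858 to 24778944. Levels are given as CPM (the count relative to the TMM-scaled library total) and, where genes are compared, as RPKM (CPM per kilobase of a GENCODE transcript). Of the 12 libraries hypoxia 2 and hypoxia 3 lay far from the rest: on a first principal component holding 76.2% of the variance they scored 126 and 105, against 11.8 for hypoxia 1 and -51.6 to -8.95 in the other groups. Their TMM factors were 0.772 and 0.838, against 1.03 to 1.08 elsewhere. The common dispersion was 0.0339 with them and 0.00850 without them. No 2 replicates agreed within sampling noise (chi-square per degree of freedom from 1.68 to 155). Values that rest on the hypoxia group are therefore given with and without those 2 libraries. This was done for the tested members and for the other genes named in hypoxia against control. Without the 2 libraries the hypoxia group consists of hypoxia 1 alone, and its spread is taken from the other groups. A floor of 3 counts corresponded to 0.118 to 0.267 CPM, by counting error alone. Of the 9 genes, 7 passed the filter on low counts and were tested, while KRT19 and CDH1 did not pass.

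KRT7, KRT18 and KRT8 were among the most abundant transcripts of these cells in every group, while CDH1 had no count at all and EPCAM and KRT19 lay at or near the floor. KRT7 averaged 2321 ± 155 RPKM in TEPA+hypoxia, 2708 ± 119.8 RPKM in TEPA, 5005 ± 1984 RPKM in hypoxia and 2267 ± 370.2 RPKM in control (SD, n = 3 each, as for the following means). Among all rows ordered by count it ranked between 3 and 17 in each library. KRT18 averaged 836 ± 97.6 RPKM in TEPA+hypoxia, 864 ± 13.2 in TEPA, 2054 ± 852 in hypoxia and 865 ± 73.2 in control. KRT8 averaged 582 ± 45.2 RPKM in TEPA+hypoxia, 658 ± 20.8 in TEPA, 1194 ± 435 in hypoxia and 639 ± 67.7 in control. The order KRT7, KRT18, KRT8 held for the means of all 4 groups, although in hypoxia the spreads of KRT18 and KRT8 overlapped.

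The other members were far lower per length. KRT80, a type II keratin of a range of epithelia, averaged 52.1 ± 1.39 RPKM in TEPA+hypoxia, 43.6 ± 1.17 in TEPA, 40.8 ± 4.17 in hypoxia and 40.9 ± 4.62 in control. KRT15, a type I keratin known from basal epithelial cells, averaged 15.2 ± 1.98 RPKM in TEPA+hypoxia, 13.9 ± 0.125 in TEPA, 17.0 ± 4.05 in hypoxia and 8.91 ± 0.121 in control. KRT81, a type II keratin of hair, averaged 0.785 ± 0.146 RPKM in TEPA+hypoxia, 1.04 ± 0.128 in TEPA, 2.76 ± 1.19 in hypoxia and 0.756 ± 0.181 in control. EPCAM averaged 0.538 ± 0.0396 RPKM in TEPA+hypoxia, 0.317 ± 0.0976 in TEPA, 0.168 ± 0.0574 in hypoxia and 0.224 ± 0.0201 in control. EPCAM thus lay below KRT81 in the mean of each group, and KRT19 lay lowest of the members with counts in every group except hypoxia, where it averaged 0.251 ± 0.181 RPKM and overlapped EPCAM.

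Together KRT7, KRT8 and KRT18 took 0.605 to 0.709% of all counts in TEPA+hypoxia libraries, 0.710 to 0.763% in TEPA, 0.790% in hypoxia 1, 1.40% in hypoxia 2, 1.30% in hypoxia 3, and 0.564 to 0.740% in control. They made up 95.9 to 98.7% of all keratin counts. Of 55 keratin rows in the table, 31 were at 0 in all libraries and 7 passed the filter: 6 members and KRT10, a type I keratin of differentiating epidermis, which had 5.90 to 30.9 CPM. The epidermal keratin KRT5 had no count and its partner KRT14 had 1 count in total.

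CDH1, the adhesion receptor of epithelial junctions, had 0 counts in all 12 libraries, which allows at most 0.118 to 0.267 CPM by counting error. Some well-known genes were likewise listed at or near 0 in this table: CANX had 4 counts over all libraries, AMD1 and TXNRD1 had 2 each, and the hexokinase HK1 had 0. A gene listed at 0 was therefore not read as silent. For comparison, the cadherins of mesenchymal and endothelial cells had ample counts: CDH2 had 41.4 to 51.3 RPKM in TEPA+hypoxia libraries, 41.1 to 44.2 in TEPA, 20.5 to 35.8 in hypoxia and 38.9 to 47.2 in control. CDH5 had 159 to 176 RPKM in TEPA+hypoxia, 169.6 to 187 in TEPA, 66.5 to 140.4 in hypoxia and 159 to 177 in control. Both were called lower in hypoxia against control, CDH2 by a log2 fold change of -0.77 ± 0.19 (SE; edgeR, adjusted p = 0.00848) and CDH5 by -0.74 ± 0.20 (adjusted p = 0.0116). Without hypoxia 2 and 3 these were -0.29 ± 0.13 for CDH2 and -0.24 ± 0.09 for CDH5, not called (adjusted p = 0.202 and 0.155).

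KRT19, the usual type I keratin of ductal epithelium, had 3, 5 and 7 counts in TEPA+hypoxia 1 to 3, 5, 2 and 0 counts in TEPA 1 to 3, 2, 4 and 7 counts in hypoxia 1 to 3, and 4, 5 and 0 counts in control 1 to 3. The groups overlapped in every pair. With no filter its log2 fold change was 0.99 ± 0.89 (SE) for hypoxia against control (edgeR, adjusted p = 0.488), so at this depth no difference was detectable in either direction.

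**Figure D1:**
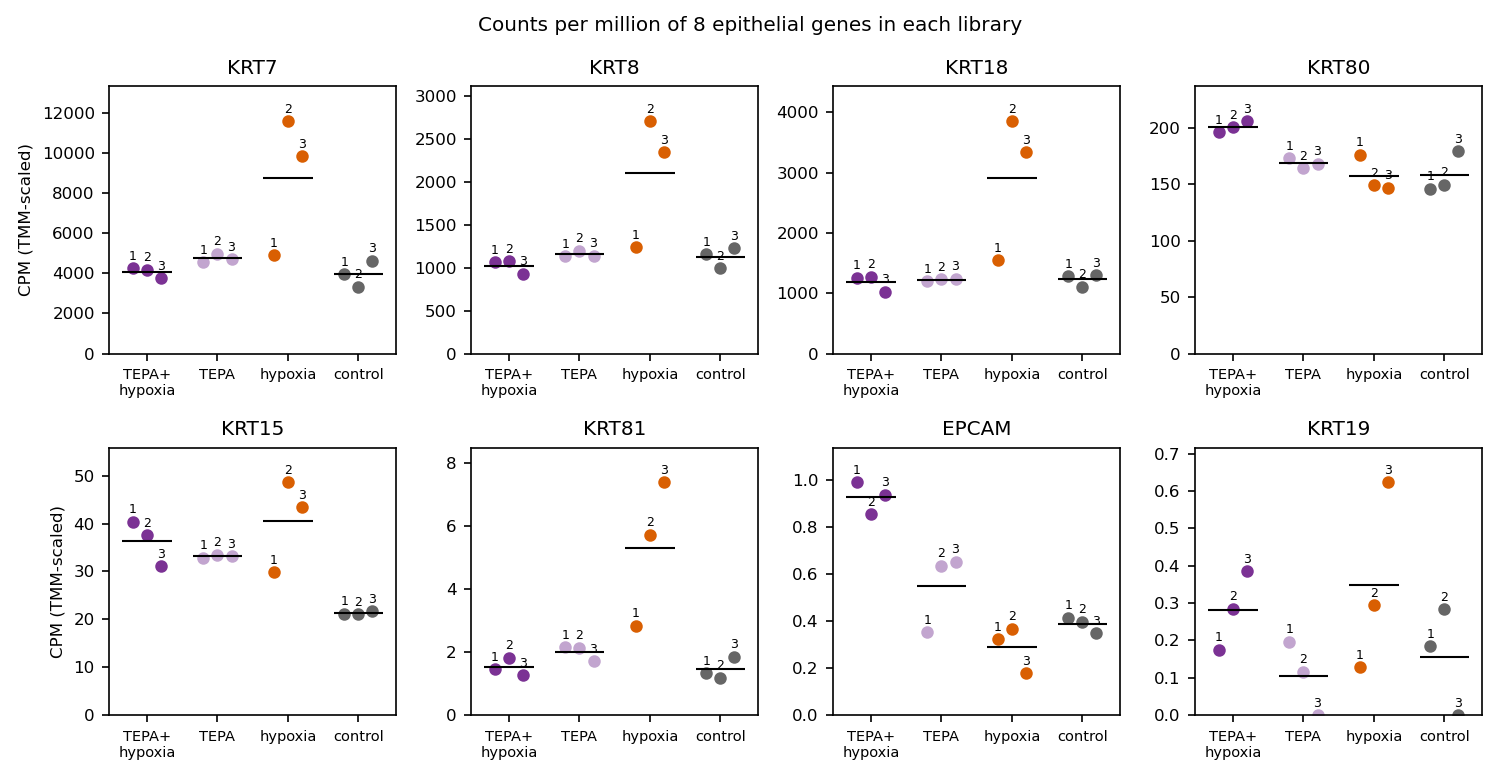
TMM-scaled CPM (y axis, linear, a scale for each gene) of the 8 members with counts in each library, by group; numbers are the library numbers and bars the group means. For KRT7, KRT8 and KRT18, hypoxia 2 and 3 lie above all other libraries and hypoxia 1 lies closer to the other groups than to them; for EPCAM, the TEPA+hypoxia libraries are the highest.

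In hypoxia against control, the question is the effect of low oxygen with no chelator. KRT7, KRT8, KRT18, KRT15 and KRT81 rose in the fit of all libraries, and KRT80 and EPCAM had adjusted p-values of 0.969 and 0.518. Without hypoxia 2 and 3 none of the 7 was called, and the log2 fold changes of the 5 were then 0.14 to 0.97, against 0.90 to 1.85 with all libraries. Since the cells were measured in bulk, more cells with a transcript and more transcript per cell cannot be told apart.

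KRT7 had 4890, 11603 and 9842 CPM in hypoxia 1 to 3, against 3961, 3334 and 4633 CPM in control 1 to 3. The groups did not overlap, with hypoxia 2 and 3 far above every control and hypoxia 1 just above the highest control. Its log2 fold change was 1.14 ± 0.25 (SE; 2.21-fold; edgeR quasi-likelihood test with Benjamini-Hochberg adjustment over all tested genes, adjusted p = 0.00612) and 0.30 ± 0.14 without hypoxia 2 and 3 (adjusted p = 0.212).

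The pair KRT8 and KRT18 followed the same order of libraries. KRT8 had 1239, 2706 and 2342 CPM in hypoxia 1 to 3, against 1152, 991 and 1223 CPM in control 1 to 3. KRT18 had 1554, 3859 and 3340 CPM in hypoxia 1 to 3, against 1281, 1109 and 1296 CPM in control 1 to 3. In both genes hypoxia 1 was above all controls, by little for KRT8 and by more for KRT18. The log2 fold change of KRT8 was 0.90 ± 0.22 (adjusted p = 0.00765) and that of KRT18 was 1.25 ± 0.25 (adjusted p = 0.00601). Leaving out hypoxia 2 and 3 gave 0.14 ± 0.12 for KRT8 (adjusted p = 0.485) and 0.34 ± 0.12 for KRT18 (adjusted p = 0.146).

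KRT15 had 29.8, 48.6 and 43.4 CPM in hypoxia 1 to 3, against 21.2, 21.1 and 21.7 CPM in control 1 to 3. Here hypoxia 1 stood clear of the controls, which lay close together. The log2 fold change was 0.93 ± 0.16 (adjusted p = 0.00601) and 0.48 ± 0.14 without hypoxia 2 and 3 (adjusted p = 0.103). KRT81 had 2.84, 5.73 and 7.39 CPM in hypoxia 1 to 3, from 44 to 83 counts, against 1.33, 1.19 and 1.85 CPM in control 1 to 3, from 21 to 32 counts. Its groups did not overlap, and its log2 fold change was the highest of the members, 1.85 ± 0.33 (adjusted p = 0.00601), with 0.97 ± 0.33 without hypoxia 2 and 3 (adjusted p = 0.130).

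KRT80, unlike the other tested keratins, was not called, with 176, 149 and 147 CPM in hypoxia 1 to 3, against 146, 149.5 and 179 CPM in control 1 to 3. The groups overlapped, and the log2 fold change was -0.01 ± 0.10, with a range from -0.23 to 0.16 over all alternatives. EPCAM had 5, 5 and 2 counts in hypoxia 1 to 3, against 9, 7 and 6 counts in control 1 to 3. The log2 fold change of EPCAM was -0.38 ± 0.40, and at these counts a change of that size was not detectable.

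In this comparison 5 of 7 tested members were called higher and 0 lower, while 29.4% of all 14447 tested genes were called higher and 27.8% lower. The same 5 members had groups that did not overlap, as did 55.6% of all tested genes. The median log2 fold change was 0.93 over the 7 members and -0.01 over all tested genes. Leaving out hypoxia 2 and 3, the median over the 7 members was 0.30. A fit of the hypoxia and control libraries alone gave the same 5 log2 fold changes as the fit of all libraries, with adjusted p-values just above the threshold, 0.0582 for KRT7, KRT15, KRT18 and KRT81 and 0.0618 for KRT8. The transcripts of KRT7, KRT8, KRT18 and KRT81 have a GC content of 58.5 to 62.9%. That of KRT15 has 57.2%, that of KRT80 56.8% and that of EPCAM 47.0%. After correcting each library for GC content and transcript length, the log2 fold changes were 0.29 (adjusted p = 0.0324) for KRT7, 0.17 (adjusted p = 0.150) for KRT8, 0.43 (adjusted p = 0.0119) for KRT18, 0.65 (adjusted p = 0.00545) for KRT15 and 1.13 (adjusted p = 0.00609) for KRT81.

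Beyond the members, 1 other keratin row (KRT10) and 4 keratin pseudogene rows passed the filter, of which KRT8P12 had the most counts. KRT10 averaged 21.7 ± 9.38 CPM in hypoxia and 10.0 ± 1.83 CPM in control (SD, n = 3 each), a log2 fold change of 1.11 ± 0.29 (edgeR, adjusted p = 0.00934), and 0.28 ± 0.23 without hypoxia 2 and 3 (adjusted p = 0.495). KRT8P12 had 20.6, 45.9 and 38.5 CPM in hypoxia 1 to 3, against 11.9 to 14 CPM in control libraries, a log2 fold change of 1.43 ± 0.24 (edgeR, adjusted p = 0.00601), and 0.67 ± 0.17 without hypoxia 2 and 3 (adjusted p = 0.0749). Whether the reads of KRT8P12 came from KRT8 transcripts was not tested.

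TEPA+hypoxia against TEPA asks for the same response to low oxygen under chelation. TEPA+hypoxia 3 lay somewhat apart, at -51.6 on the first principal component against -28.6 to -16.4 for the other 5 libraries, and differed from its group mates with a chi-square per degree of freedom of 16.5 and 14.7, against 1.68 between those 2. No member was called in either direction by edgeR, DESeq2 or limma-voom. Of the keratins that were high in hypoxia 2 and 3, KRT7, KRT8, KRT18 and KRT81 sat near or below their TEPA level. KRT15 averaged somewhat above it, at 36.4 ± 4.74 CPM in TEPA+hypoxia and 33.2 ± 0.298 CPM in TEPA (SD, n = 3 each). All 6 libraries of this comparison lay within 3761 to 4976 CPM for KRT7.

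KRT7 had 4269, 4182 and 3761 CPM in TEPA+hypoxia 1 to 3, against 4561, 4976 and 4713 CPM in TEPA 1 to 3. The groups did not overlap, TEPA+hypoxia being lower, and the log2 difference was -0.22 ± 0.24 (edgeR, adjusted p = 0.847). KRT8 had 1061, 1071 and 929 CPM in TEPA+hypoxia 1 to 3, against 1131, 1197 and 1137 CPM in TEPA 1 to 3, a log2 difference of -0.18 ± 0.22. For KRT18 the values were 1259, 1274 and 1027 CPM in TEPA+hypoxia 1 to 3, against 1205, 1237 and 1239 CPM in TEPA 1 to 3, and the groups overlapped. TEPA+hypoxia 3 was the lowest of the 6 libraries for all 3 genes, and without it the log2 differences were -0.17 for KRT7, -0.12 for KRT8 and 0.05 for KRT18, against -0.22, -0.18 and -0.05 with it.

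KRT80 had 196, 200.3 and 206 CPM in TEPA+hypoxia 1 to 3, against 173, 164 and 168 CPM in TEPA 1 to 3. All TEPA+hypoxia libraries were above all TEPA libraries, and the log2 difference was 0.25 ± 0.10 (edgeR, adjusted p = 0.575; unadjusted p = 0.0307). EPCAM had 17, 15 and 17 counts in TEPA+hypoxia 1 to 3, against 9, 11 and 11 counts in TEPA 1 to 3. In CPM these were 0.989, 0.854 and 0.937 in TEPA+hypoxia, against 0.353, 0.635 and 0.652 in TEPA, with no overlap and a log2 difference of 0.79 ± 0.31 (edgeR, adjusted p = 0.543; unadjusted p = 0.0246). EPCAM passed the filter through its TEPA+hypoxia libraries, so its presence among the tested genes is tied to the group in which it is high.

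KRT15 had 40.4, 37.6 and 31.1 CPM in TEPA+hypoxia 1 to 3, against 32.9, 33.5 and 33.2 CPM in TEPA 1 to 3, and KRT81 had 1.45, 1.82 and 1.27 CPM in TEPA+hypoxia 1 to 3, against 2.15, 2.14 and 1.72 CPM in TEPA 1 to 3. Both overlapped between the groups. Thus 0 of 7 members were called, where 0.0623% of all tested genes were called higher and 0.0346% lower. KRT80 and EPCAM, 2 of 7 members, had an unadjusted p under 0.05, as did 1110 of all 14447 tested genes. Groups did not overlap for 4 of 7 members and for 30.5% of all tested genes.

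The interaction tests whether the response to hypoxia differed with and without TEPA. It was called lower with TEPA for KRT7, KRT8, KRT15, KRT18 and KRT81, that is 5 of 7 members, where 21.5% of all tested genes were called lower and 17.3% higher. The largest difference was that of KRT81, -2.26 ± 0.47 on the log2 scale (edgeR, adjusted p = 0.0236). KRT7 differed by -1.36 ± 0.35 (adjusted p = 0.0236), KRT18 by -1.29 ± 0.35 (adjusted p = 0.0239), KRT8 by -1.08 ± 0.31 (adjusted p = 0.0257) and KRT15 by -0.80 ± 0.23 (adjusted p = 0.0259). KRT80 (0.26 ± 0.15, adjusted p = 0.162) and EPCAM (1.17 ± 0.51, adjusted p = 0.0851) were not called.

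The interaction without hypoxia 2 and 3 was -0.51 ± 0.17 for KRT7, -0.31 ± 0.14 for KRT8, -0.34 ± 0.18 for KRT15, -0.37 ± 0.15 for KRT18 and -1.36 ± 0.41 for KRT81, with adjusted p-values of 0.0777 to 0.230 and none called by edgeR. The median over the 7 members was then -0.34, against -1.08 with all libraries. The 5 adjusted p-values lay close to the threshold with all libraries: none was called without TEPA+hypoxia 3, TEPA 2, hypoxia 3, control 1 or control 2, 2 were called without hypoxia 2 and 3 without TEPA 3. After the GC and length correction 1 member, KRT81, was called (-1.46 ± 0.34, adjusted p = 0.0297).

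**Figure D2:**
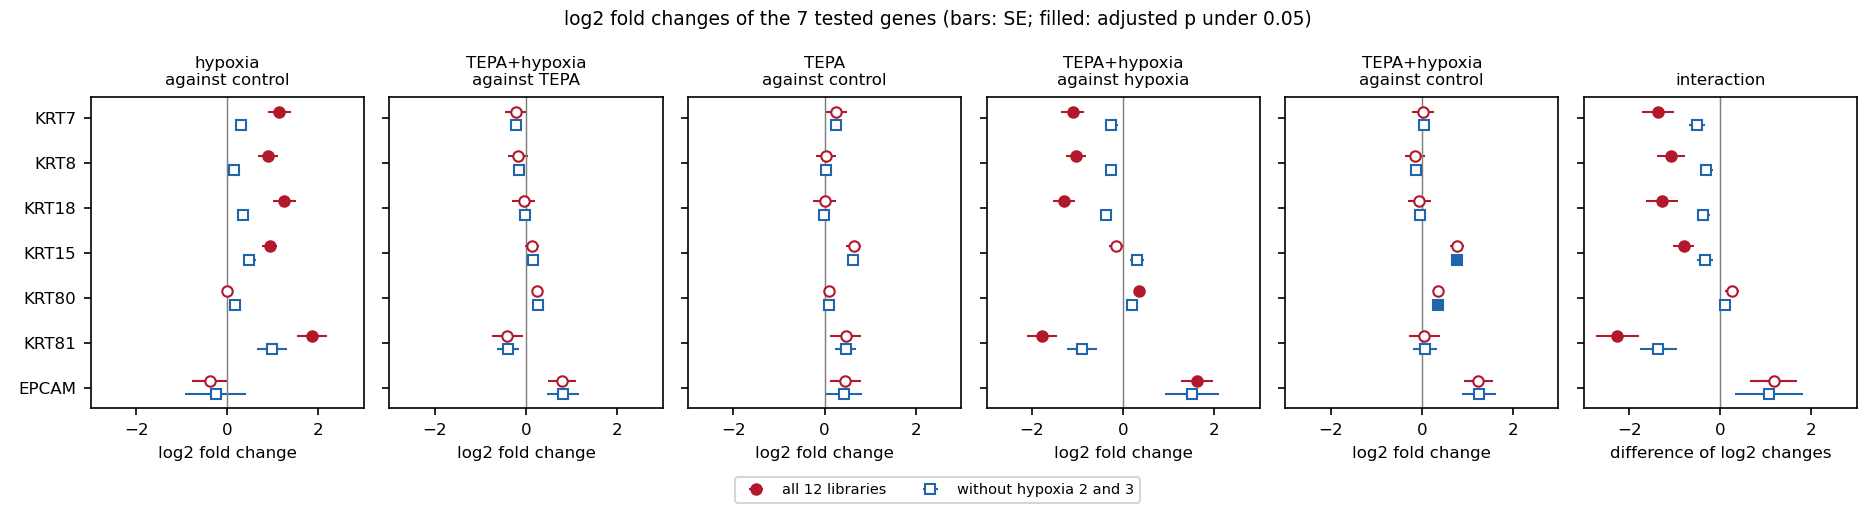
log2 fold change (x axis) of the 7 tested members in each of the 6 comparisons, with all 12 libraries (circles) and without hypoxia 2 and 3 (squares); bars are the SE and filled symbols have an adjusted p under 0.05. In hypoxia against control KRT18 is at 1.25 with all libraries and at 0.34 without the 2, while KRT15 in TEPA+hypoxia against control is at 0.77 and 0.78.

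TEPA+hypoxia against hypoxia asks what the chelator changed in low oxygen, and it shares its hypoxia libraries with hypoxia against control and its TEPA+hypoxia libraries with the comparison under chelation. KRT7, KRT8, KRT18 and KRT81 fell, KRT80 rose, and KRT15 was not called. EPCAM was called higher, but it passed the filter through the TEPA+hypoxia libraries, its hypoxia counts lay near the floor of 3, and a stricter filter (1 CPM in 3 or more libraries) removed it. Of the 7 members 2 were called higher and 4 lower, where 30.9% of all tested genes were called higher and 30.6% lower. Groups did not overlap for 6 of 7 members and for 62.7% of all tested genes.

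The per-library values are those given above for the 2 groups, and all 3 TEPA+hypoxia libraries lay below all hypoxia libraries for the first 4 genes. KRT7 differed by -1.11 ± 0.25 on the log2 scale (0.464-fold; edgeR, adjusted p = 0.00357), KRT8 by -1.04 ± 0.22 (adjusted p = 0.00296), KRT18 by -1.30 ± 0.25 (adjusted p = 0.00231) and KRT81 by -1.79 ± 0.33 (adjusted p = 0.00217). With hypoxia 1 as the only hypoxia library the log2 differences were smaller in size, -0.26 for KRT7, -0.27 for KRT8, -0.38 for KRT18 and -0.90 for KRT81. After the GC and length correction KRT7 was no longer called (-0.21, adjusted p = 0.102), and KRT8, KRT18 and KRT81 were called at -0.26, -0.42 and -1.03.

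EPCAM and KRT80 had the opposite sign from the abundant keratins. EPCAM, the calcium-independent adhesion molecule of epithelia, had 15 to 17 counts in TEPA+hypoxia and 2 to 5 counts in hypoxia. The log2 fold change was 1.62 ± 0.36 (edgeR, adjusted p = 0.00355), and 1.51 ± 0.60 without hypoxia 2 and 3 (adjusted p = 0.0970). It was 1.61 after the GC and length correction (adjusted p = 0.00448). KRT80 averaged 201 ± 5.34 CPM in TEPA+hypoxia and 157 ± 16.1 CPM in hypoxia (SD, n = 3 each), a log2 fold change of 0.35 ± 0.10 (edgeR, adjusted p = 0.0128). For KRT80 it was 0.20 without hypoxia 2 and 3 (adjusted p = 0.221), and 0.31 without hypoxia 3 alone (adjusted p = 0.0528).

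TEPA against control asks what the chelator did at normal oxygen. No member was called, and none of the 14447 genes was called by edgeR in either direction (0% each; 289 genes had an unadjusted p under 0.05, and the smallest adjusted p was 0.854). DESeq2 called 1 gene higher and 5 lower, none of them a member, and limma-voom called 0.

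KRT15 showed the clearest difference among the members, with 32.9, 33.5 and 33.2 CPM in TEPA 1 to 3, against 21.2, 21.1 and 21.7 CPM in control 1 to 3. The libraries within each group lay closer together than 1 CPM while the groups were more than 10 CPM apart. The log2 difference was 0.64 ± 0.16 (1.56-fold; edgeR, unadjusted p = 0.00219, adjusted p = 1.00). Its adjusted p was 0.0745 without hypoxia 2 and 3, 0.0492 without hypoxia 1 and 0.0137 in a fit of these 6 libraries alone, in which it was called. KRT15 was 1 of 7 members whose groups did not overlap, as was the case for 13.6% of all tested genes. KRT7 averaged 4750 ± 210.2 CPM in TEPA and 3976 ± 649 CPM in control (SD, n = 3 each), a log2 difference of 0.26 ± 0.24, and the groups overlapped. For KRT8, KRT18, KRT80, KRT81 and EPCAM the log2 differences were 0.04, -0.00, 0.09, 0.47 and 0.45, all with overlapping groups.

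TEPA+hypoxia against control sets both treatments together against neither. Hypoxia 2 and 3 enter it through the shared estimate of spread. No member was called, where 0.145% of all tested genes were called higher and 0.118% lower. At an unadjusted p under 0.05 there were 3 of 7 members, KRT15, KRT80 and EPCAM, and 1471 of all 14447 tested genes. The same 3 members had groups that did not overlap, as was the case for 28.6% of all tested genes. EPCAM is among the 3 after passing the filter through its TEPA+hypoxia libraries. DESeq2 called KRT15 (adjusted p = 0.00430), as did the fit with the GC and length correction (adjusted p = 0.00719), and limma-voom called none.

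KRT15 averaged 36.4 ± 4.74 CPM in TEPA+hypoxia and 21.3 ± 0.290 CPM in control (SD, n = 3 each). The log2 difference was 0.77 ± 0.16 (1.71-fold; edgeR, adjusted p = 0.0904), and without hypoxia 2 and 3, whose removal narrows the estimate of spread, it was 0.78 ± 0.10 (adjusted p = 9.37e-04) and called. KRT80 averaged 201 ± 5.34 CPM in TEPA+hypoxia and 158 ± 17.8 CPM in control, a log2 difference of 0.35 ± 0.10 (adjusted p = 0.246), and 0.35 ± 0.08 without hypoxia 2 and 3 (adjusted p = 0.0220), likewise called there. EPCAM averaged 0.927 ± 0.0683 CPM in TEPA+hypoxia and 0.386 ± 0.0346 CPM in control. Its log2 difference was 1.24 ± 0.32 (2.37-fold, edgeR, adjusted p = 0.184) and 1.25 ± 0.37 without hypoxia 2 and 3. Because EPCAM passed the filter through its TEPA+hypoxia libraries, this difference is tied to the filter. The abundant keratins were close to control: the log2 difference was 0.03 ± 0.24 for KRT7, -0.14 ± 0.22 for KRT8 and -0.05 ± 0.25 for KRT18. KRT15 was thus above control in all 9 treated libraries, with 29.8 CPM as the lowest treated value and 21.7 CPM as the highest control value, a pattern picked out after its values were seen.

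Ratios of 2 members within a library do not depend on the scaling between libraries, and they were compared by exact two-sided permutation tests of 3 against 3 libraries. The smallest p such a test can give is 0.1, which after adjustment over the 15 tests was 0.150, so no ratio could pass the threshold. The log2 ratio of KRT8 to KRT18 was -0.33, -0.51 and -0.51 in hypoxia 1 to 3, against -0.15, -0.16 and -0.08 in control 1 to 3. All hypoxia libraries lay below all control libraries, so KRT8 was lower relative to its partner there, with a mean difference of -0.32 (exact p = 0.1). In TEPA+hypoxia the KRT8 to KRT18 ratio averaged -0.21 ± 0.06, against -0.09 ± 0.04 in TEPA (SD, n = 3 each; difference -0.13, exact p = 0.1).

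The log2 ratio of KRT7 to KRT18 averaged 1.60 ± 0.05 in hypoxia and 1.68 ± 0.13 in control (SD, n = 3 each), with overlapping groups (exact permutation p = 0.5). It averaged 1.95 ± 0.05 in TEPA and 1.68 ± 0.13 in control, without overlap (difference 0.27, exact permutation p = 0.1). On the linear scale KRT7 had 3.15, 3.01 and 2.95 counts per KRT18 count in hypoxia 1 to 3, against 3.09, 3.01 and 3.57 in control 1 to 3. The log2 ratio of EPCAM to KRT18 averaged -10.32 ± 0.22 in TEPA+hypoxia and -13.26 ± 0.99 in hypoxia, a difference of 2.94 without overlap (exact permutation p = 0.1). It rests on 2 to 5 EPCAM counts in a hypoxia library, near the floor of 3. Ratios with KRT19 or CDH1 could not be formed because of counts of 0.

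**Figure D3:**
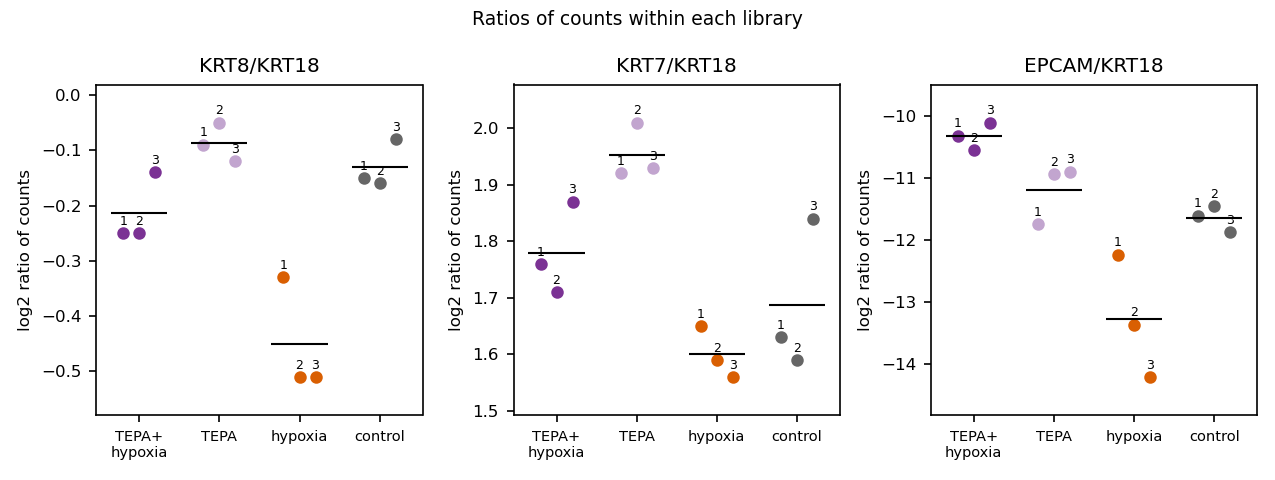
log2 ratios of counts of 2 members within each library (y axis), by group; numbers are the library numbers and bars the group means. KRT8 relative to KRT18 is lowest in hypoxia 2 and 3 (both -0.51), KRT7 relative to KRT18 is highest in the TEPA group (mean 1.95), and EPCAM relative to KRT18 is highest in TEPA+hypoxia (mean -10.32).

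The other genes of epithelial identity were taken from lists chosen with earlier results of these data known. Their counts in hypoxia against control stand against 29.4% of all tested genes called higher and 27.8% called lower, and without hypoxia 2 and 3 no gene of any list was called. Most of the defining epithelial regulators had few or no counts. Of 16 regulators, 4 were tested (ESRP2, GRHL1, KLF4 and FOXA1), while the splicing regulator ESRP1 and the transcription factors GRHL2, OVOL1, OVOL2 and FOXA2 were at 0 in all libraries. In hypoxia against control 0 regulators were called higher and 1 lower: FOXA1, a pioneer factor of lung and other endoderm epithelia, averaged 1.17 ± 0.696 CPM in hypoxia and 2.77 ± 0.387 CPM in control (SD, n = 3 each; log2 fold change -1.22 ± 0.34; edgeR, adjusted p = 0.0117), with -0.52 ± 0.31 without hypoxia 2 and 3. ESRP2 (0.64, edgeR, adjusted p = 0.308) and KLF4 (-0.44, adjusted p = 0.0804) were not called. Without hypoxia 2 and 3, ESRP2 was at 0.50 ± 0.79 and KLF4 at -0.22 ± 0.24.

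Of 8 tested adherens and desmosome partners 5 were called lower and 1 higher, with a median log2 fold change of -0.65. The higher one was PKP3, a desmosomal plaque protein, which averaged 95.1 ± 24.3 CPM in hypoxia and 48.8 ± 5.46 CPM in control (SD, n = 3 each; log2 fold change 0.96 ± 0.17; edgeR, adjusted p = 0.00601). PKP2, another plaque protein, was lower (-0.75 ± 0.21, adjusted p = 0.0116), as was CTNND1, the p120 catenin that holds cadherins at the membrane (-1.11 ± 0.26, adjusted p = 0.00657). Leaving out hypoxia 2 and 3, the log2 fold changes were 0.46 ± 0.14 for PKP3, -0.23 ± 0.12 for PKP2 and -0.46 ± 0.13 for CTNND1, and the median of the list was -0.20. The desmosomal genes DSP, DSG2, DSC2 and PKP1 were at 0 in all libraries.

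Of 8 tested tight junction and polarity genes 5 were called lower and 0 higher, with a median of -0.53. TJP1, a scaffold of tight junctions, averaged 71.1 ± 36.6 CPM in hypoxia and 164 ± 17.0 CPM in control (SD, n = 3 each; log2 fold change -1.20 ± 0.28; edgeR, adjusted p = 0.00652). CLDN1, a sealing claudin, was lower by less (-0.52 ± 0.13, adjusted p = 0.00874). Leaving out hypoxia 2 and 3, TJP1 was at -0.53 ± 0.17 and CLDN1 at -0.44 ± 0.17, with a list median of -0.20. The epithelial claudins CLDN2 and CLDN3 were at 0 in all libraries, and CLDN4 and CLDN7 had 20 and 27 counts in total.

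The lists of surface genes and of lung lineage genes were mixed. Of 10 tested surface genes and proteases 1 was called higher and 1 lower, with a median of 0.08: ITGB4, the hemidesmosome integrin chain, was higher (0.55 ± 0.10; edgeR, adjusted p = 0.00601) and its partner chain ITGA6 was lower (-0.97 ± 0.24, adjusted p = 0.00786). With hypoxia 1 as the only hypoxia library, ITGB4 was at 0.42 ± 0.12 and ITGA6 at -0.41 ± 0.17. Of 5 tested lung lineage genes 4 were called higher and 1 lower, with a median of 0.70. AGER (1.21 ± 0.22, adjusted p = 0.00601) and HOPX (0.70 ± 0.16, adjusted p = 0.00658), both known from alveolar type I cells, were higher, and the transcription factor ETV5 was lower (-0.79 ± 0.15, adjusted p = 0.00601). With hypoxia 1 alone they were at 0.92 ± 0.29 for AGER, 0.41 ± 0.22 for HOPX and -0.51 ± 0.15 for ETV5. NKX2-1, SFTPA1 and SLC34A2, which define alveolar type II cells, were at 0. The summed level of the lung list was 41.7 to 44.4 CPM in hypoxia and 46.5 to 53.9 CPM in control, the opposite direction from its median, with ETV5 as its most abundant gene.

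**Figure D4:**
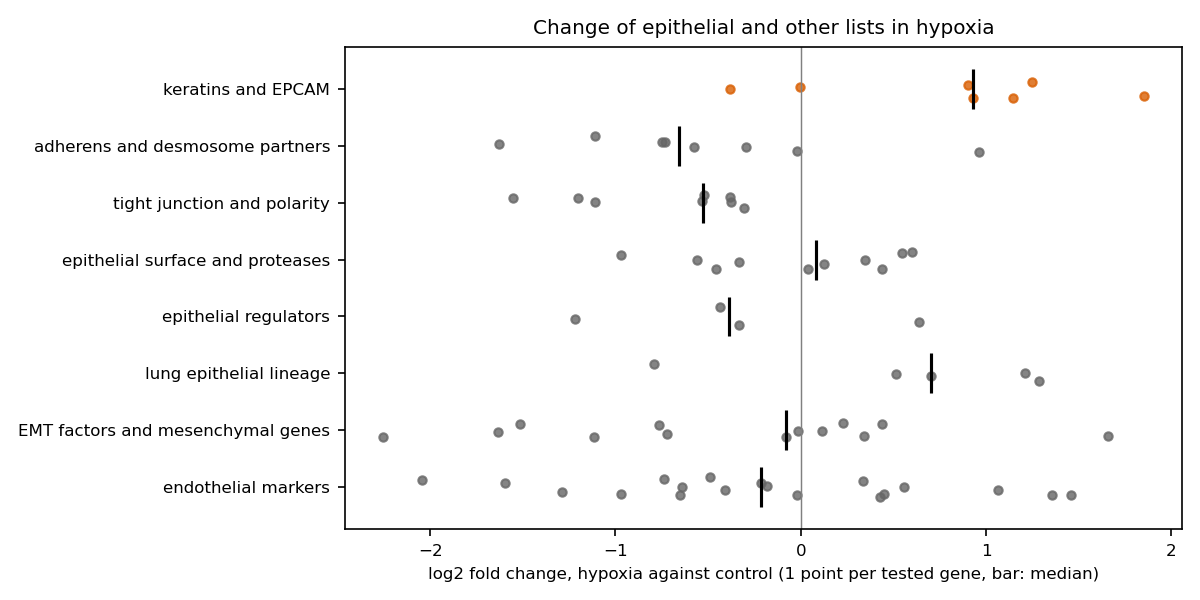
log2 fold change in hypoxia against control (x axis) of each tested gene (points) in the members and 7 other lists, with the median of each list (bar). The median of the members is 0.93, that of the adherens and desmosome partners -0.65, and that of the tight junction and polarity genes -0.53.

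Intermediate filaments other than keratins and mesenchymal genes showed no common direction. Of 9 tested filament and linker genes 2 were called higher and 2 lower. VIM, the main filament of mesenchymal and endothelial cells, averaged 5688 ± 740.5 CPM in hypoxia and 4191 ± 126 CPM in control (SD, n = 3 each; log2 fold change 0.44 ± 0.10; edgeR, adjusted p = 0.00675), and the lamin gene LMNA was higher as well (0.79 ± 0.20, adjusted p = 0.00855). SYNM, a filament linker, was lower (-0.71 ± 0.17, adjusted p = 0.00728). Leaving out hypoxia 2 and 3, VIM was at 0.21 ± 0.08, LMNA at 0.11 ± 0.10 and SYNM at -0.40 ± 0.17. Of 13 tested genes of epithelial-mesenchymal transition 2 were called higher and 6 lower (median -0.08), with S100A4, a calcium-binding protein, higher (1.66 ± 0.36, adjusted p = 0.00613) and among the lower ones ZEB2, a repressor of epithelial genes (-1.51 ± 0.34, adjusted p = 0.00640), and FN1, fibronectin (-1.12 ± 0.25, adjusted p = 0.00631). Their values with hypoxia 1 alone were 0.31 ± 0.20 for S100A4, -0.78 ± 0.24 for ZEB2 and -0.50 ± 0.13 for FN1.

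Markers of other cell types were measured beside the members. Of 21 endothelial markers 19 were tested, and 7 were called higher and 8 lower in hypoxia (median -0.22). Their summed level was 6254 to 10067 CPM in hypoxia and 5503 to 6292 CPM in control, and that of the 9 members 7892 to 18371 CPM in hypoxia and 5607 to 7354 CPM in control. EGFL7 (1.46 ± 0.29; edgeR, adjusted p = 0.00601) and ENG (1.36 ± 0.28, adjusted p = 0.00601) were higher, and the receptor KDR was lower (-1.29 ± 0.22, adjusted p = 0.00601). With hypoxia 1 alone EGFL7 was at 0.44 ± 0.18, ENG at 0.36 ± 0.13 and KDR at -0.96 ± 0.23. CLDN5 and EMCN were at 0 in all libraries. Of 4 tested fibroblast and mural markers 2 were called higher and 1 lower, with summed levels of 51.8 to 84.3 CPM in hypoxia and 84.4 to 89.2 CPM in control and with COL3A1 and DCN at 0. Of 2 tested leukocyte markers 1 was called higher (CD68, log2 fold change 0.26 ± 0.10, and 0.10 ± 0.10 without hypoxia 2 and 3), with summed levels of 168 to 205 CPM in hypoxia and 154 to 164 CPM in control, and with PTPRC at 0. The part of these levels in the keratin result was not tested.

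TEPA+hypoxia against hypoxia shares the hypoxia libraries with the comparison above, so opposite signs in the 2 are no separate observation. Of all tested genes 30.9% were called higher and 30.6% lower in it. Of 8 tested adherens and desmosome partners 5 were called higher (CTNNA1, CTNNB1, CTNND1, PKP2 and PPL) and 2 lower (JUP and PKP3), with a median log2 fold change of 0.56. CTNND1 was higher by 1.16 ± 0.26 (edgeR, adjusted p = 0.00340), and by 0.52 ± 0.13 without hypoxia 2 and 3 (adjusted p = 0.0253). The alpha-catenin CTNNA1 was higher by 1.72 ± 0.55 (adjusted p = 0.0183), and by 0.61 ± 0.11 without those libraries (adjusted p = 0.0178). Of 8 tested tight junction and polarity genes 5 were called higher (among them CLDN1, CLDN12, TJP1 and CGN) and 0 lower, with a median of 0.64. TJP1 was higher by 1.41 ± 0.28 (adjusted p = 0.00235), and by 0.74 ± 0.17 without hypoxia 2 and 3 (adjusted p = 0.0204). These 3 were the junction genes called both with and without the 2 libraries.

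Among 10 tested surface genes 2 were called higher in TEPA+hypoxia against hypoxia (ITGA6 and EGFR) and 1 lower. ITGA6 was higher by 1.16 ± 0.24 (edgeR, adjusted p = 0.00273), and by 0.60 ± 0.18 without hypoxia 2 and 3 (adjusted p = 0.0377). Of 4 tested regulators FOXA1 was called higher (0.85 ± 0.34, adjusted p = 0.0496; 0.16 ± 0.31 without hypoxia 2 and 3, not called). Of 5 tested lung lineage genes ETV5 was called higher and AGER, HOPX and NAPSA, the aspartic protease of alveolar type II cells, were called lower, and none of the 4 was called without hypoxia 2 and 3. In the other lists 6 of 13 tested genes of epithelial-mesenchymal transition were called higher and 3 lower, 4 of 9 filament and linker genes higher and 2 lower, and 9 of 19 endothelial markers higher and 6 lower. Summed levels were 5506 to 5748 CPM in TEPA+hypoxia and 6254 to 10067 CPM in hypoxia for the endothelial markers, and 5957 to 6828 CPM in TEPA+hypoxia and 7892 to 18371 CPM in hypoxia for the 9 members.

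In TEPA+hypoxia against control 1 of 10 tested surface genes was called higher, the hemidesmosome chain ITGB4, and 1 was called lower. Of all tested genes 0.145% were called higher and 0.118% lower in that comparison. ITGB4 had 75.1, 61.7 and 70.4 CPM in TEPA+hypoxia 1 to 3, against 42.3, 44.2 and 41.6 CPM in control 1 to 3, a log2 fold change of 0.69 ± 0.10 (edgeR, adjusted p = 0.0148) and 0.70 without hypoxia 2 and 3 (adjusted p = 5.25e-04). All 3 TEPA+hypoxia libraries lay above all controls. In the fit of all 12 libraries no gene of any of these lists was called in TEPA against control or in TEPA+hypoxia against TEPA. The estimate of spread in that fit includes hypoxia 2 and 3, so the absence of calls is limited to it. Without those libraries, surface genes were called in both directions in TEPA+hypoxia against TEPA, where calls over all genes rose as well.

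The genes whose patterns over the 12 libraries were most like those of the members are given by the root mean square difference of centred log2 CPM. For KRT18 they were C1orf35 (0.04) and ARFRP1 (0.05), while KRT18 itself ranged over 1.91 on that scale. For KRT8 they were PPP1CA and PRKCSH (both 0.04), and for KRT7 they were RIN1 (0.06) and LMAN2 (0.07). No keratin was among these nearest genes. KRT15, with a range of 1.20, was nearest to PLA2G6 and C1QTNF6 (both 0.11), and KRT80, with a range of 0.50, to FBXL2 (0.08) and C12orf4 (0.09). The differences were larger for the rarer members, which also had wide ranges. KRT81, with a range of 2.52, was nearest to C11orf31 (0.19) and NPDC1 (0.20). EPCAM, with a range of 1.92, was nearest to LOC105378550 (0.24) and LOC105376905 (0.25).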

How the data were processed

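Poly(A) RNA of EA.hy926 cells was sequenced from directional libraries, per the labels' protocols. HISAT2 2.1.0, DESeq and the GRCh38 build are named in the submitters' processing notes. Which read counter, annotation and strand option were used was not given in the sources used here. Raw counts per gene symbol (whole numbers, not normalized, 1 column per library) make up the deposited table. From these counts 14447 of 51141 rows passed filterByExpr by group, and these rows hold 99.9% of the counts. TMM scaling was used, a single model with a mean for each of the 4 groups was fitted to the 12 libraries, and contrasts were tested with the quasi-likelihood F-test of edgeR 4.0.16 (R 4.3.3, two-sided), with Benjamini-Hochberg adjustment over all tested genes and a call at an adjusted p under 0.05. The script was tested on simulated counts. Ratios used exact permutation tests (SciPy 1.17.1, Python 3.11.15).

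Alternatives were RLE, upper quartile or no scaling factors, no filter, at least 1 CPM in 3 libraries, DESeq2 1.42.0, limma-voom (limma 3.58.1), the replicate block, a correction for GC content and length (natural splines, 4 degrees of freedom, on the 12556 genes with both values, 86.9% of the tested genes) with and without the block, only the 2 groups compared, each library left out, hypoxia 2 and 3 left out, and, for ratios, pseudogene counts added. Coding sequences and positions come from GENCODE 29 on GRCh38, which may not be the annotation of the authors, aligned with MAFFT 7.526. RPKM were computed here from these counts and GENCODE transcript lengths.

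The genes named are all 9 members, other keratin and keratin pseudogene rows that passed the filter, the 2 nearest patterns of each tested member, and from each list up to 3 genes with the smallest p in hypoxia against control and any called in another contrast (for TEPA+hypoxia against hypoxia these are named for the epithelial lists, and the rest are counted). Untested genes of the lists, untested keratins and comparison genes (CDH2, CDH5, HK1, CANX, TXNRD1, AMD1) were named after their values were seen. Members and lists were chosen with earlier results of these data known. Some sequences and genes of the lists are not reported here.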

Additional observations from a re-analysis of the deposited data

Results flagged for a closer look

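For 5 of 7 tested members the response to hypoxia differed with and without TEPA by the interaction test of edgeR. In that test 21.5% of all 14447 tested genes were called lower and 17.3% higher. The difference of log2 fold changes (with TEPA minus without) was -1.36 for KRT7, -1.08 for KRT8, -0.80 for KRT15, -1.29 for KRT18 and -2.26 for KRT81. In the libraries with TEPA the response to hypoxia was -0.22, -0.18, 0.13, -0.05 and -0.41 in that order of genes, and without TEPA 1.14, 0.90, 0.93, 1.25 and 1.85. Without hypoxia 2 and 3 the 5 differences were -0.51, -0.31, -0.34, -0.37 and -1.36, and none was called. The groups have 3 libraries each, so single libraries that stand out within a group were not tested for.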

How the results depend on the processing

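No member result called with all libraries changed direction under an alternative. KRT15 in TEPA+hypoxia against hypoxia, at -0.16 and not called, was at -0.31 without hypoxia 1 (adjusted p = 0.0193) and at 0.30 without hypoxia 2 and 3 (adjusted p = 0.168). Replicate numbers showed no sign of pairing the libraries, which does not establish that the libraries were unpaired. Residuals of libraries with the same number correlated at -0.36 to 0.32 (median -0.04, 18 pairs), against -0.46 to 0.49 (median 0.02, 36 pairs) for different numbers. The replicate block left the counts of called members as they were, with 5 members higher in hypoxia against control, except together with the GC and length correction, where 2 members were lower in TEPA+hypoxia against hypoxia. That correction, with or without the replicate block, left 1 member lower in the interaction and 1 higher in TEPA+hypoxia against control.

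Without hypoxia 2 and 3, 0 members were higher in hypoxia against control, 0 higher and 0 lower in TEPA+hypoxia against hypoxia, 0 lower in the interaction, and 2 higher in TEPA+hypoxia against control. In fits of only the 2 groups compared, 0 members were higher in hypoxia against control (edgeR, adjusted p = 0.0582 for 4 of the 5, at the same log2 fold changes). In each of the other 4 comparisons of groups 1 was higher. These were KRT80 in TEPA+hypoxia against TEPA, KRT15 in TEPA against control and in TEPA+hypoxia against control, and EPCAM in TEPA+hypoxia against hypoxia. EPCAM passed the filter through its TEPA+hypoxia libraries, so its call is tied to the filter. Over the alternatives that did not leave out a single library, all genes called higher reached 205 in TEPA+hypoxia against TEPA. They reached 2 in TEPA against control and 5683 in TEPA+hypoxia against hypoxia, and were at least 10 in TEPA+hypoxia against control. In TEPA+hypoxia against control 1 member was higher with library totals alone and with DESeq2, and in TEPA+hypoxia against hypoxia 1 was higher with at least 1 CPM in 3 libraries, where EPCAM was not tested. Leaving out each library in turn gave 0 to 5 members lower and 0 to 1 higher in the interaction. It gave 0 to 1 higher in TEPA against control and 0 to 2 higher in TEPA+hypoxia against control. In TEPA+hypoxia against hypoxia 1 to 2 were higher and 4 to 5 lower, and hypoxia against control kept 5. Leaving out hypoxia 1 gave both the 1 member in TEPA against control (KRT15) and the 2 members in TEPA+hypoxia against control (KRT15 and KRT80). Over all genes, leaving out each library in turn gave 0 to 4497 lower and 0 to 5261 higher in the interaction. It gave 0 to 1 higher in TEPA against control and 2 to 334 higher in TEPA+hypoxia against control. In TEPA+hypoxia against hypoxia 3133 to 5765 genes were higher and 3487 to 5100 lower, and in hypoxia against control 2853 to 5085 were higher. Without hypoxia 2 and 3 the log2 ratio difference of KRT8 to KRT18 was -0.19 in hypoxia against control and 0.11 in TEPA+hypoxia against hypoxia, and that of EPCAM to KRT18 was -0.59 and 1.91. Causes of these changes were not tested.

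Over all genes, library totals alone shifted the median log2 change by -0.23 in hypoxia against control and by 0.28 in TEPA+hypoxia against hypoxia and in the interaction. Calls higher and lower in hypoxia against control were then 2899 and 4833 (4254 and 4016 with TMM), in TEPA+hypoxia against hypoxia 5683 and 2951 (4467 and 4420), and in the interaction 2318 and 1809 (2498 and 3113). Without hypoxia 2 and 3 there were 43 and 35 in hypoxia against control, 1213 and 1090 in TEPA+hypoxia against hypoxia, and 201 and 128 (9 and 5 with all libraries) in TEPA+hypoxia against TEPA, 418 and 345 (21 and 17 with all libraries) in TEPA+hypoxia against control, and 0 and 0 in the interaction. In fits of only the 2 groups compared, 0 genes were called in hypoxia against control. Depth limits EPCAM and KRT19, at no more than 17 and 7 counts in a library.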
